A study of Mus musculus with 6 samples.

Results

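The V-type proton ATPase is a rotary pump that uses ATP to move protons across membranes. Its soluble V1 sector hydrolyses ATP, its membrane sector V0 carries the protons, and a peripheral stalk holds the sectors together. The pump acidifies lysosomes, endosomes and melanosomes in most cells, and in specialised epithelia it sits in the plasma membrane and secretes acid. Loss of the B1 or the a4 isoform in people causes renal tubular acidosis with hearing loss, and the pH of endolymph depends on acid-base transport in the inner ear. Described here are 10 subunit genes of this pump, namely Atp6v1a, Atp6v1b1, Atp6v1b2, Atp6v1c1, Atp6v1e1 and Atp6v1h of V1 and Atp6v0a1, Atp6v0a4, Atp6v0d1 and Atp6v0e of V0. Members were taken by name, and every probe set with 1 of these symbols as its only gene symbol was used. That gave 24 of the 45037 probe sets on the array, and 10 of the 18193 genes that could be named, with more than 1 probe set for 6 of the 10. The d2 isoform, Atp6v0d2, is not among the members and is used only for comparison.

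The tissue was the cochlear lateral wall, dissected from the inner ear of CBA/CaJ mice of either sex that were kept in a low-noise room. The stria vascularis and the spiral ligament make up this outer wall of the cochlear duct. The young group had an age of 1 to 3 months and the old group an age of 1.5 years, with 3 arrays per age and no treatment. Total RNA was amplified from the poly(A) tail and hybridised to 1-colour Affymetrix arrays, 1 sample per array. The labels do not say whether replicates came from separate animals or pools, so p-values measure only the spread among these samples. Values are log2 signals, and a difference is always old minus young. A mean is followed by its SD over 3 arrays, and a difference by its standard error or its 95% interval from limma, not corrected for the number of probe sets.

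Several properties of the samples bear on every value. Markers of the labelled tissue were well represented. All 8 measured fibrocyte markers, all 6 of marginal cells, all 6 of spindle and root cells and 6 of 8 of intermediate cells lay above 6.28, the median of all signals on the arrays. At their brightest probe sets, 11781 of all 18193 genes did so. Of these 4 lists, 0 had a member that passed the test, where 4.86% of all genes passed. Summed linear signals were higher on old arrays for marginal cells (34681 to 36052.6 young, 37247.1 to 38808.5 old) and spindle and root cells (22198 to 25324, 25499 to 28773). They were lower for fibrocytes (96952 to 97899, 93647 to 96514) and overlapped for intermediate cells (35530 to 40104, 39116 to 40711). Bright markers weigh most in such sums. Taken singly, 4 fibrocyte markers had positive and 4 negative differences, with a median of 0. Positive and negative differences numbered 6 and 0 for marginal cells, 5 and 1 for spindle and root cells and 7 and 1 for intermediate cells. All 6 endothelial markers were above the median of 6.28, against 3 of 7 neuronal and 1 of 5 hair cell markers, again with 0 that passed. Markers of some other cell types moved with age. Macrophage markers rose for 4 of 14 and fell for 0, osteocyte and osteoblast markers fell for 3 of 7 and rose for 0, marrow myeloid markers fell for 6 of 7 and rose for 0, erythroid markers fell for 1 of 3 and rose for 0, and osteoclast markers rose for 1 of 10 and fell for 0. Young replicate 2 had an Xist signal of 6.06 where the other 5 arrays had 11.95 to 12.65, so its make-up by sex differed. The 3′ end of the Gapdh control exceeded its 5′ end by 1.07 to 1.25 on young and by 1.26 to 1.45 on old arrays. The same excess for Actb overlapped between ages, at 1.46 to 1.6 and 1.39 to 1.84. In such bulk tissue, fewer cells of a type and less RNA per cell cannot be told apart. The part of these properties in the results below was not tested unless a value is given.

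The first question was whether RNA for the pump differed between young and old lateral wall. It did not pass the test for any of the 24 probe sets, 0 higher and 0 lower at a limma adjusted p of 0.05, while 4.71% of all probe sets passed. At that share about 1.13 of 24 would pass, so a count of 0 is near the background and sets the pump apart from nothing. With 1 probe set per gene, 0 of the 10 genes passed, against 4.86% of all genes. At an unadjusted limma p under 0.05 there were 3 of 24, those of Atp6v0e, of 1 dim probe set of Atp6v0a1 and of 1 dim probe set of Atp6v1h, against 19.2% of all probe sets. The groups did not overlap for 6 of 24 probe sets, against 23.8% of all. With the brightest probe set of each gene, differences ran from -0.13 to 0.18, 8 positive and 2 negative, with a median of 0.06. The median over all genes was 0.03.

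**Figure D1:**
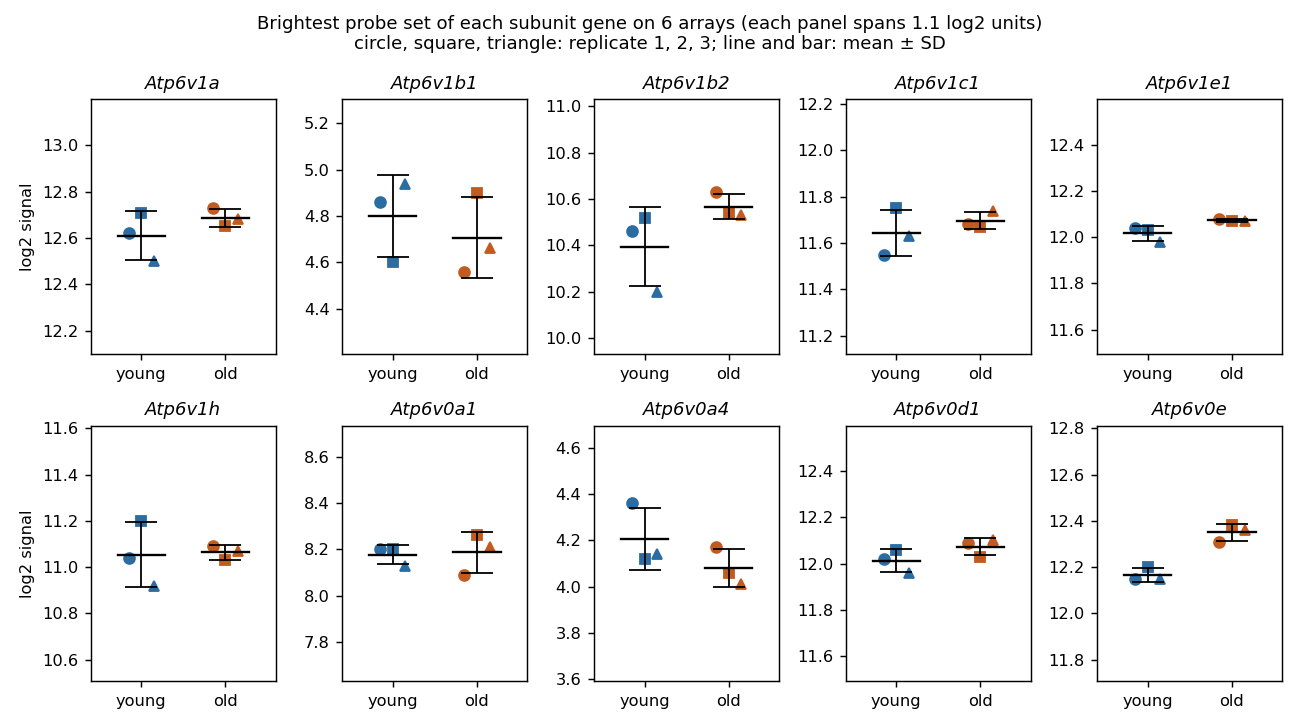
Log2 signal of the brightest probe set of each of the 10 subunit genes on the 3 young and 3 old arrays, with replicate numbers as symbols and the mean ± SD as lines, and 1 vertical span for every panel. Only for Atp6v0e, Atp6v1b2 and Atp6v1e1 do all old points lie above all young points, and the means of no panel are further apart than 0.18.

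The sizes of change that remain possible are given by the intervals. For the brightest probe sets, the 95% intervals together reached from a fold of 0.774 to a fold of 1.32, and 10 of 10 stayed within a fold of 1.5 in either direction. The same held for 23 of 24 member probe sets, the exception being the dim probe set of Atp6v1h, and for 39196 of all 45037 probe sets. For the 8 genes whose brightest probe set lay above the median signal, the intervals reached from a fold of 0.872 to 1.32. Atp6v0a4 and Atp6v1b1 lay below the median signal. If their signals are background, their intervals do not limit a change in their RNA. Standard errors of the 24 had a median of 0.09, and those of all probe sets had a median of 0.10. An interval gives the sizes of change that remain possible for a probe set, not the smallest change that can pass: Ctss passed at a fold of 1.44 and Ctsc at a fold of 1.33.

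The catalytic head of V1 is a ring of A and B subunits, with ATP hydrolysed at A. Atp6v1a, which encodes A, had signals of 12.62, 12.71 and 12.50 on young replicates 1 to 3 and of 12.73, 12.65 and 12.68 on old replicates 1 to 3. The old values fell inside or just above the young range, and the groups overlapped. The difference was 0.08 with an interval from -0.11 to 0.27 (limma adjusted p = 0.716). A second probe set, 1450634_at, lay at 11.63, 11.64 and 11.53 in young and at 11.48, 11.54 and 11.41 in old samples, and its difference was -0.12 with an interval from -0.30 to 0.06 (limma adjusted p = 0.471). The probe sets of this gene thus pointed in opposite directions, and both intervals included 0.

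The B subunit has an isoform of most cells, B2, and one of acid-secreting epithelia, B1. Atp6v1b2 was measured by 4 probe sets. The brightest, 1415814_at, had values of 10.46, 10.52 and 10.20 in young and of 10.63, 10.54 and 10.53 in old samples. The lowest old value was barely above the highest young one, and young replicate 3 stood lowest. The difference was 0.17 with an interval from -0.05 to 0.40 (limma adjusted p = 0.410). The next, 1419883_s_at, overlapped between ages at a difference of 0.12, and the remaining probe sets lay below the median signal with differences of -0.03 and 0.10.

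Atp6v1b1 was represented by 1 probe set with low signals throughout. They were 4.86, 4.60 and 4.94 in young and 4.56, 4.90 and 4.66 in old samples. The groups overlapped almost entirely, and both lay below the median of 6.28. The difference was -0.09 with an interval from -0.37 to 0.18 (limma adjusted p = 0.770). A low array signal can be background, and signal over background was not examined, so these values do not tell whether B1 is expressed in this tissue.

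Subunits C, E and H belong to the stalk that keeps V1 on V0. C leaves the complex when the pump is taken apart, E forms the peripheral stalk, and H blocks ATP hydrolysis in V1 that has come free. Atp6v1c1 was covered by 3 probe sets, all above the median signal and all with positive differences, of 0.05, 0.14 and 0.19. The brightest, 1419545_a_at, stood at 11.55, 11.75 and 11.63 in young and at 11.68, 11.67 and 11.74 in old samples, inside the young range. The one with the highest difference, 1419544_at, stood at 10.03, 10.13 and 9.84 in young and at 10.28, 10.13 and 10.17 in old samples. Old replicate 2 tied with young replicate 2 there, and the interval ran from -0.03 to 0.41 (limma adjusted p = 0.331). Only for 1419546_at were the groups apart, at 10.67 to 10.85 in young and 10.87 to 10.94 in old samples (limma adjusted p = 0.424).

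Atp6v1e1 was measured by 4 probe sets. Its brightest probe set, 1449712_s_at, gave 12.04, 12.03 and 11.98 in young and 12.08, 12.07 and 12.07 in old samples. All old arrays were higher, but the difference was 0.06 with an interval from -0.11 to 0.22 (limma adjusted p = 0.764). The suffix of that probe set marks probes that other transcripts can share. The other 3 probe sets overlapped between ages, with differences of 0.05, -0.04 and -0.04.

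Atp6v1h was the member whose probe sets disagreed most. The brightest, 1415826_at, was at 11.04, 11.20 and 10.92 in young and at 11.09, 11.03 and 11.07 in old samples. The old values lay within the young ones, at a difference of 0.01 with an interval from -0.20 to 0.22 (limma adjusted p = 0.973). The dim probe set 1457639_at was at 5.96, 5.39 and 5.38 in young and at 4.59, 5.17 and 4.85 in old samples, below the median signal in both groups. Every old value was under every young one, the difference was -0.71 with an interval from -1.14 to -0.28, and it missed the threshold (limma adjusted p = 0.0736). With array weights it passed at a difference of -0.59 (limma adjusted p = 0.0466), and without old replicate 3 it was further from passing, at -0.70 (limma adjusted p = 0.210). The third, 1447659_x_at, was near the floor of the array at 3.03 to 3.28 and differed by 0.06. Which part of the transcript each probe set reads was not examined.

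**Figure D2:**
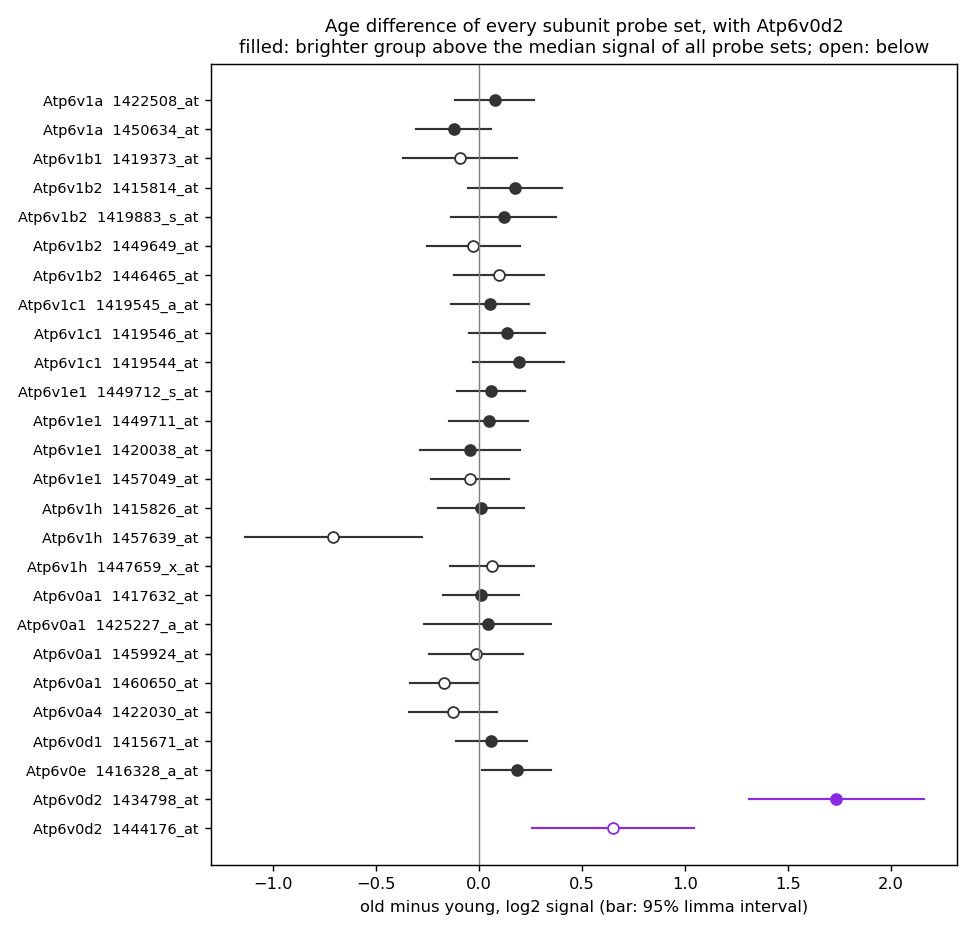
Difference in log2 signal, old minus young, for all 24 member probe sets and for Atp6v0d2, with 95% limma intervals; filled points are probe sets above the median of 6.28. Of the member intervals, 21 include 0 and those of 1457639_at of Atp6v1h, 1460650_at of Atp6v0a1 and 1416328_a_at of Atp6v0e do not, while both Atp6v0d2 probe sets lie to the right at 1.73 and 0.65.

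In V0, subunit a forms the channels through which protons enter and leave the rotor, and its isoform sets the membrane to which the pump goes. The a1 isoform is common in neurons and in lysosomal membranes. Atp6v0a1 was measured by 4 probe sets. The brightest, 1417632_at, read 8.20, 8.20 and 8.13 in young and 8.09, 8.26 and 8.21 in old samples, which enclosed the young range. Its difference was 0.01 with an interval from -0.17 to 0.19 (limma adjusted p = 0.970). The dimmest, 1460650_at, read 5.02, 5.0 and 5.04 in young and 4.88, 4.86 and 4.81 in old samples. There the groups were apart at a difference of -0.17 that did not pass (limma adjusted p = 0.248), and the other probe sets differed by 0.04 and -0.01.

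The a4 isoform goes to the plasma membrane of acid-secreting cells together with B1. Atp6v0a4 had values of 4.36, 4.12 and 4.14 in young and of 4.17, 4.06 and 4.01 in old samples, all below the median signal. The groups overlapped through old replicate 1, and the difference was -0.13 with an interval from -0.34 to 0.09 (limma adjusted p = 0.549). As for B1, the low signal leaves its expression here unknown.

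Subunit d caps the rotor and couples it to V1, and e is a small hydrophobic subunit of V0. Atp6v0d1, the common d isoform, was at 12.02, 12.06 and 11.96 in young and at 12.09, 12.03 and 12.10 in old samples. Old replicate 2 lay between young replicates 1 and 2, and the difference was 0.06 with an interval from -0.11 to 0.23 (limma adjusted p = 0.760). Atp6v0e was at 12.15, 12.20 and 12.15 in young and at 12.31, 12.38 and 12.36 in old samples. Each old array was above each young array with a clear gap, and the interval of the difference of 0.18, from 0.02 to 0.35, did not include 0 before correction. After correction over all probe sets it did not pass (limma adjusted p = 0.213). With an intensity trend and robust variance, the p adjusted over genes was 0.0490 by limma, at the same difference, which made Atp6v0e the 1 member gene called in that setting.

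Promoter sequence is shown for the members whose window holds the E-box read by the lysosomal regulators TFEB, TFE3 and MITF, since V-ATPase genes belong to their known targets. RefSeq windows of 300 bases, from 250 before to 50 after a start (GRCm38.p6), were at hand for 7 of the 10 members, all except Atp6v1b2, Atp6v1c1 and Atp6v1h. The palindrome TCACGTGA, which reads alike on both strands and contains the shorter CACGTG, was found in 3 of the 7. It occurred in 0.974% of all 32851 windows, and CACGTG in 7.15%. Counted by gene, as the lists below are, the shares were 1.12% and 8.09% of 27025 genes. Among the other subunits of the pump, 0 of 12 genes had the palindrome and 1 had CACGTG. The palindrome was in 4 of 29 lysosomal genes, 2 of 13 acid-base and chloride partners and 1 of 8 assembly factors and TLDc genes. It was in 0 of 14 Ragulator and Rag genes and 0 of the 4 factor genes. CACGTG was in 11 of the 29 lysosomal genes and 3 of the 13 partners. It was in 3 of the 8 assembly and TLDc genes, 6 of the 14 Ragulator and Rag genes and 0 of the 4 factor genes. The matches in the members are printed 5′ to 3′ on the gene's strand with 10 bases on each side, and the capitals mark the palindrome.
Atp6v0d1, chr8:105566051-105566078, minus strand: cctactgcggTCACGTGAgacgcggtgc
Atp6v0e, chr17:26676388-26676415, plus strand: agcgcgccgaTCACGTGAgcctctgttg
Atp6v1a, chr16:44139374-44139401, minus strand: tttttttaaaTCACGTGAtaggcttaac
The first base of the palindrome stood at -4, 2 and -132 from the table's start base in Atp6v0d1, Atp6v0e and Atp6v1a. No match was present in the windows of Atp6v0a1, Atp6v0a4, Atp6v1b1 and Atp6v1e1, which says only that these letters are not in this window. The age differences of the genes with a match were 0.06, 0.18 and 0.08, and those of the genes without were 0.01, -0.13, -0.09 and 0.06 at their brightest probe sets. All 7 intervals overlapped. The values of -0.13 and -0.09 belong to Atp6v0a4 and Atp6v1b1, whose signals may be background. Other probe sets varied too, with -0.12 for Atp6v1a, 0.04, -0.01 and -0.17 for Atp6v0a1, and 0.05, -0.04 and -0.04 for Atp6v1e1. Of the factors themselves, measured at 4 genes, 0 rose and 0 fell by limma, where 4.86% of all genes passed. An unadjusted limma p under 0.05 was found for 1 of the 4, against 3762 of all 18193 genes. Mitf, the melanocyte regulator, had the smallest p, with 12.34 ± 0.16 in young and 11.96 ± 0.15 in old samples (limma adjusted p = 0.0970), and Tfec stood at 3.87 ± 0.10 and 4.07 ± 0.16 (limma adjusted p = 0.342).

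A change in isoform use could leave the sum of a subunit unchanged, so isoforms were set against each other within each array. The signals of Atp6v0a4 and Atp6v1b1 may be background, in which case their scatter enters these pairs, which then do not inform on isoform use. Taken singly, Atp6v0a4 differed by -0.13 and Atp6v0a1 by 0.01, and Atp6v1b1 by -0.09 and Atp6v1b2 by 0.17. For Atp6v0a4 minus Atp6v0a1, the within-array log2 difference moved by -0.14 from young to old, and the groups overlapped (exact 2-sided permutation p = 0.3). For Atp6v1b1 minus Atp6v1b2, it moved by -0.27, again with overlap (exact 2-sided permutation p = 0.4). The third pair sets the d2 isoform, known from osteoclasts and macrophages, against d1. Atp6v0d2 rose from 4.68, 4.89 and 4.77 in young to 6.18, 6.37 and 6.99 in old samples, a difference of 1.73 ± 0.19 (limma adjusted p = 0.00303). Its young signals are as low as those of Atp6v1b1 and may be background, so the size of this difference is uncertain. Relative to Atp6v0d1 on the same array it moved by 1.67, with no overlap (exact 2-sided permutation p = 0.1). That is the smallest p that 3 against 3 can give, and after Benjamini-Hochberg adjustment over the 3 pairs it was 0.3, so no pair could pass.

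**Figure D3:**
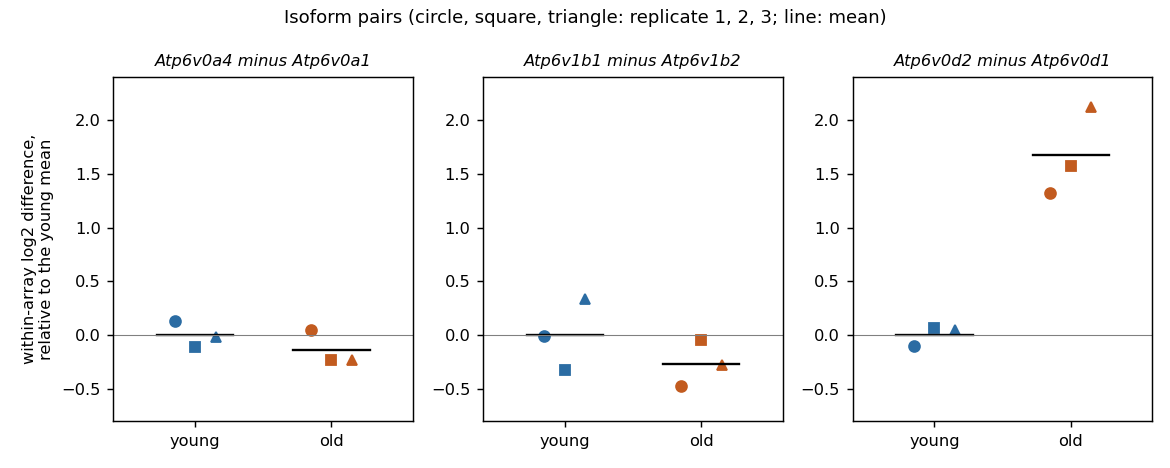
Within-array log2 difference of the isoform pairs, drawn relative to its young mean, for 3 young and 3 old arrays. Points of the first pairs overlap between ages, and those of Atp6v0d2 minus Atp6v0d1 lie 1.67 higher on average in old samples.

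Marker levels beside the d2 difference were as follows. The summed linear signal of the 14 macrophage markers ranged from 8107 to 9499 on young and from 13758 to 14118 on old arrays, and none of the young arrays reached the old ones. Bright markers weigh most in this sum, among them Lyz2 (10.46 ± 0.31 to 12.02 ± 0.08) and Gpnmb (11.70 ± 0.13 to 12.21 ± 0.14). Of the 14 differences, 11 were positive and 3 negative (Cd163, Mrc1 and Csf1r), and 10 markers did not pass. The osteoclast markers had no common direction, with 5 of 10 positive, 5 negative and a median difference of -0.01. Their sum ranged from 1254 to 1288 on young and from 1165 to 1214 on old arrays. It rests on Ctsk, and without that gene it ranged from 683 to 756 on young and from 756 to 773 on old arrays, a comparison added after the values were seen. Acp5, the tartrate-resistant phosphatase, rose from 6.35 ± 0.31 to 7.25 ± 0.23 (limma adjusted p = 0.0232). Of these osteoclast markers, 3 of 10 were above the median signal, and Calcr, Ocstamp and Dcstamp were below it. The part of either cell type in the d2 difference was not tested. The second Atp6v0d2 probe set, 1444176_at, stood at 4.09, 4.10 and 4.09 in young and at 4.37, 4.70 and 5.16 in old samples and did not pass (limma adjusted p = 0.0722).

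The rest of the pump gave 1 call. Of 15 other subunit and accessory genes listed, 13 were measured, Atp6v0d2 rose, 0 fell and 12 did not pass, with a median difference of 0.04. Of all genes, 4.86% passed. Among brightest probe sets, Atp6v0b, a rotor ring subunit, was next by p at 10.79 ± 0.11 and 11.00 ± 0.13 (limma adjusted p = 0.294). A dimmer probe set of Atp6v0a2, another a isoform, came closer in the other direction. This one, 1449870_a_at, was at 8.85 ± 0.08 in young and 8.51 ± 0.06 in old samples with the groups apart (limma adjusted p = 0.0554), while the brightest of that gene was at 10.24 ± 0.07 and 10.23 ± 0.07. Tcirg1, the a3 isoform of lysosomes and osteoclasts, was at 9.85 ± 0.09 in young and 9.80 ± 0.05 in old samples (limma adjusted p = 0.812). Atp6ap2, the accessory subunit also called the prorenin receptor, was at 13.09 ± 0.08 and 13.15 ± 0.04 (limma adjusted p = 0.758). Atp6v0c and Atp6v1g3 were not analysed here.

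The proteins that assemble or detach the pump also gave no call. Of 11 measured assembly factors and TLDc proteins, which bind V1, 0 rose and 0 fell by limma, at a median of 0.05, and 0 had an unadjusted p under 0.05. Of all 18193 genes, 4.86% passed and 3762 had an unadjusted limma p under 0.05. Wdr7, part of the complex that joins V1 to V0, was at 10.09 ± 0.03 and 10.26 ± 0.08 (limma adjusted p = 0.297), and the TLDc gene Meak7 at 7.44 ± 0.14 and 7.62 ± 0.03 (limma adjusted p = 0.360). The Ragulator and Rag proteins, which dock on the pump and pass amino acid signals to mTOR, had 0 of 14 higher and 0 lower by limma, with a median of 0.09 and 1 unadjusted p under 0.05. Rraga and Rragd came closest, with differences of 0.18 and 0.17 (limma adjusted p = 0.245 and 0.278).

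Most lysosomal genes did not pass either. Of 31 measured membrane proteins and hydrolases, Ctss and Ctsc rose, 0 fell and 29 did not pass, with a median of 0.05, where 4.86% of all genes passed. An unadjusted limma p under 0.05 was found for 9 of the 31, against 3762 of all 18193 genes. The groups did not overlap for 13 of the 31, against 4861 of all 18193 genes. Ctss, a cathepsin of antigen-presenting cells, rose from 10.85, 10.95 and 10.77 in young to 11.40, 11.38 and 11.36 in old samples, by 0.52 ± 0.08 (limma adjusted p = 0.0116). Ctsc, which activates granule proteases, rose from 9.96, 10.04 and 9.98 to 10.47, 10.31 and 10.42, by 0.41 ± 0.08 (limma adjusted p = 0.0284). Both lay higher on all old arrays, as did the summed macrophage markers, whose part in these differences was not tested. The call of Ctss was lost without young replicate 3 or old replicate 3 (limma adjusted p = 0.0527 and 0.0602). That of Ctsc was lost with the replicate block and without any single array except young replicate 2, with a limma adjusted p of up to 0.130.

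**Figure D4:**
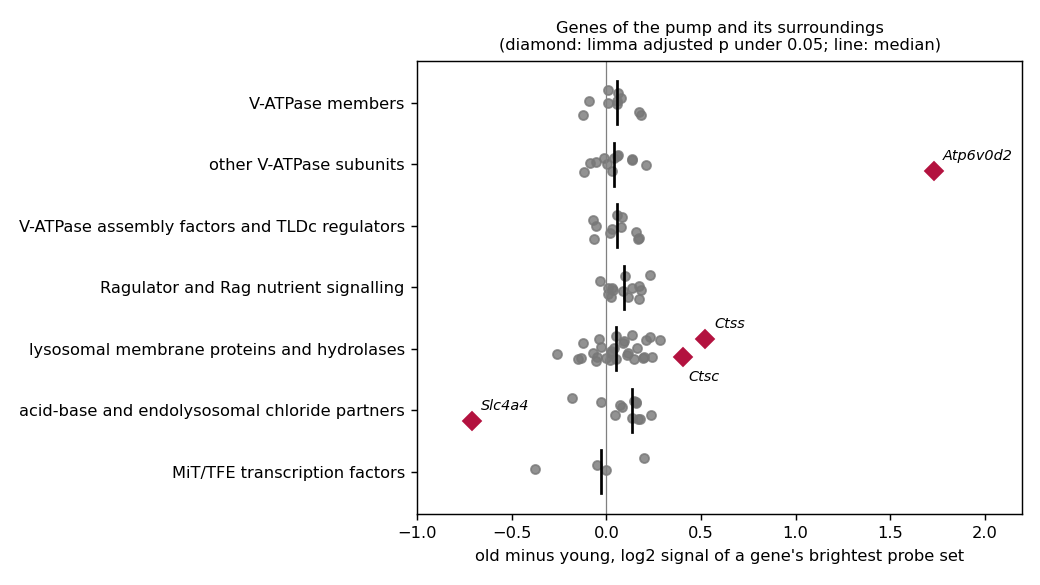
Old minus young difference in log2 signal of each gene's brightest probe set, by list, with the median of each list as a line and genes that passed the limma test as labelled diamonds. Members cluster near 0 with a median of 0.06, and the genes that passed in the other lists are Atp6v0d2, Ctss, Ctsc and Slc4a4.

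Among 13 measured acid-base and chloride partners of the pump, Slc4a4 fell, 0 rose and 12 did not pass, at a median of 0.13, where 4.86% of all genes passed. Slc4a4, a sodium bicarbonate cotransporter, went from 7.08, 7.23 and 6.99 in young to 6.23, 6.77 and 6.17 in old samples, a difference of -0.71 ± 0.16 (limma adjusted p = 0.0405). Leaving out any single array except old replicate 2 ended the call, with a limma adjusted p of up to 0.151. Pendrin, the anion exchanger of spindle and root cells encoded by Slc26a4, stood at 12.67 ± 0.10 and 12.74 ± 0.04 (limma adjusted p = 0.747), and Foxi1, a regulator of B1 and a4 in acid-secreting cells, was below the median signal in both groups.

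The member probe sets were also followed from array to array. Of the 15 member probe sets above the median signal, 14 had a single lowest array, and it was young replicate 3 for 7 of them, young replicate 1 for 4 and each of young replicate 2, old replicate 1 and old replicate 3 for 1. Over all 24 member probe sets, the counts on young replicates 1, 2 and 3 were 5, 5 and 7. Over all probe sets on the array, the lowest value was on these arrays for 21.95%, 18.4% and 16.9%. Several of the 15 probe sets belong to the same gene and are not independent. The median deviation of the 15 from their own means was -0.11 on young replicate 3 and -0.03 on young replicate 1. It was 0.03 on young replicate 2 and between 0.03 and 0.05 on old arrays. Over all probe sets above the median signal, the median deviation on young replicate 3 was -0.01. That array also had the highest summed osteoblast and osteocyte markers, 7127 against 2839 to 6303 on the others, and the highest summed marrow myeloid markers, 3397 against 679 to 3098; their part was not tested. The spread within an age was wider in young samples, with a median SD over the 24 probe sets of 0.12 in young and 0.05 in old, where all probe sets had 0.12 and 0.09. These array patterns were looked at after the values were seen.

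**Figure D5:**
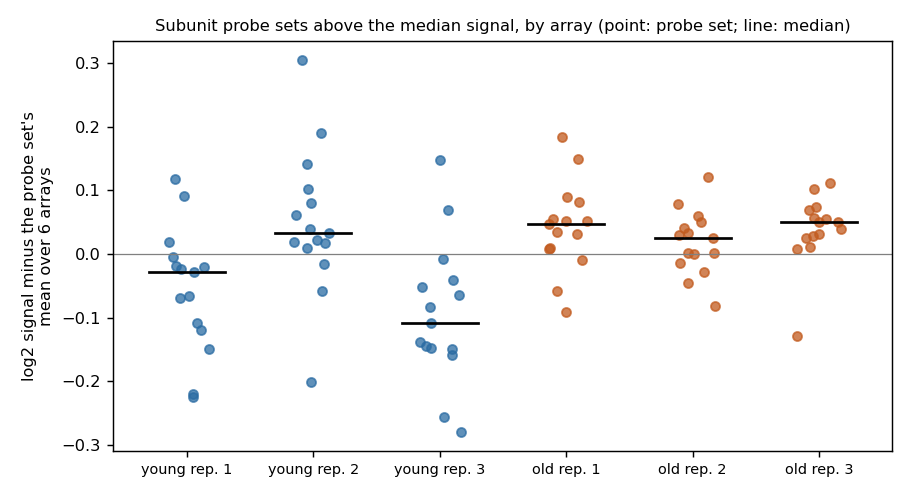
Deviation of the 15 member probe sets above the median signal from their own mean over 6 arrays, in log2 units, by array, with the median as a line. The points of young replicate 3 are mostly below 0, with a median of -0.11, and those of old replicates 1 and 3 are mostly above 0, each with a median of 0.05.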

How the data were processed

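RNA of 6 lateral wall samples was hybridised to arrays, 3 per age. Affymetrix Expression Console, RMA and MAS5 are named in the submitters' processing notes without versions or roles. The deposited table holds log2 signals per probe set, made by the authors, with array medians of 6.26 to 6.30. Such scaling removes a shift of most genes in 1 direction, and neither signal over background nor scan batches were examined. The number of arrays limits the precision. Control probe sets (64) were left out. Genes were named through the platform annotation of GEO, where 34945 probe sets had 1 symbol, 932 several (not named) and 9160 none listed. All 45037 probe sets were fitted with limma 3.58.1 in R 4.3.3, with a single term for age, and Benjamini-Hochberg adjustment ran over all of them, or over 18193 genes at their brightest probe set for gene counts. Isoform pairs were tested by exact permutation. The fit was tested on simulated data. Members, the 6 pathway lists, the 12 marker lists and the rule for named genes were chosen with earlier results of these data known. That rule names all member probe sets, up to 4 called genes per pathway list or else the 2 with the smallest p, and a few markers per list. Atp6v0a2, Atp6v0b, Tcirg1, Atp6ap2, Slc26a4, Foxi1, Xist, Cd163, Mrc1, Csf1r, Ctsk and dim osteoclast markers were named outside it, after their values were seen. Alternatives covered scaling, a filter on dim probe sets, variance model, array weights, replicate block, threshold, probe set choice and leaving out each array. Sequences came from RefSeq promoter tables.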

Additional observations from a re-analysis of the deposited data

How the results depend on the processing

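No member probe set passed in any of the alternatives except 1, Atp6v1h 1457639_at with array weights (-0.59), and the only member gene called was Atp6v0e, 1 gene with an intensity trend and robust variance. Of 327 values of member probe sets under the alternatives, 307 kept direction and side of the threshold, and 19 turned in sign, all of them small and none a call. Those with another scaling or weighting were Atp6v0a1 1417632_at at -0.016 with quantile normalization again and -0.028 with cyclic loess, Atp6v1h 1415826_at at -0.017 with cyclic loess, and Atp6v0a1 1459924_at at 0.0087 with array weights. Without 1 array each, ranges that crossed 0 were -0.027 to 0.058 for Atp6v0a1 1417632_at, -0.058 to 0.21 for 1425227_a_at and -0.068 to 0.082 for 1459924_at. They were -0.13 to 0.023 for Atp6v1b2 1449649_at, and for Atp6v1e1 -0.017 to 0.093 (1449711_at), -0.16 to 0.02 (1420038_at) and -0.095 to 0.01 (1457049_at). For Atp6v1h 1415826_at the range was -0.057 to 0.083. The cause was not tested.

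Over all probe sets, calls numbered 2119, and 436 at an adjusted p of 0.01, 4480 with array weights and 515 (without old replicate 3) to 3393 (without young replicate 2) with 1 array left out. Lysosomal genes called, 2 in the reported fit, were 0 at an adjusted p of 0.01, 4 with array weights, 1 with the replicate block and 0 to 3 with 1 array left out. The difference of Atp6v0d2, an alternative chosen after seeing the data as were those of the isoform pairs, passed in 12 of 12 settings, from 1.50 to 1.93, leaving aside the filter on dim probe sets, which it passed only through its old group. As the mean of its probe sets it was 1.19 (limma adjusted p = 0.00950). Deviations of same-numbered arrays correlated at 0.137, 0.0753 and 0.00782, so the replicate number was not taken as a pairing. With the replicate block, 1932 probe sets and 0 member probe sets were called. With 3 arrays per age, small changes and signals near background remain beyond reach.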
